A study of Homo sapiens with 12 samples.

Results

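The histone genes are the genes of the proteins on which DNA is wound in the nucleus, and they were taken as all genes with a probe whose annotated symbol is a histone symbol under current or older naming (HIST1 to HIST4, H1F, H2AF, H2BF or H3F), pseudogenes left out. They numbered 87 genes with 103 probes, of 47230 probes on the array. Of these, 70 were replication-dependent genes, with older symbols HIST1 to HIST4, and 17 were variant genes, among them MACROH2A1 and MACROH2A2 through their older H2AF symbols. RNA came from 2 human diffuse large B-cell lymphoma lines, HLY (HLY-1) and SUDHL2, each cultured in RPMI-1640 medium with 10% serum at 1% oxygen (hypoxia) or at 21% oxygen (normoxia), with 5% CO2 in all groups. Each of the 4 groups had 3 arrays (Illumina HumanHT-12 v4), which the labels call biological replicates without saying what was repeated, so p-values measure the spread between these arrays. No group carries an edited gene or another agent, each line is a single established line, and the length of hypoxia before the RNA was taken is not given in the sources used here.

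A nucleosome holds the core histones H2A, H2B, H3 and H4, and H1 binds the linker DNA between nucleosomes. Replication-dependent histone genes lie in clusters on chromosomes 6 and 1, are transcribed in S phase when new DNA is packed, and give mRNAs that mostly end in a stem-loop bound by SLBP in place of a poly(A) tail. Variant histones such as H2AZ1, H2AX and H3-3B are made through the cell cycle from polyadenylated mRNAs, and some replication-dependent genes also give polyadenylated mRNAs. The RNA on these arrays was copied from an oligo-dT primer, so signals of replication-dependent genes come from transcripts that this primer can copy, and how far they follow the stem-loop mRNAs was not tested.

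The arrays grouped across the line labels, which touches every comparison by label. Over the 9621 genes tested, each read by 1 probe, the median correlation between arrays was 0.984 for HLY hypoxia with SUDHL2 normoxia. It was 0.755 for HLY hypoxia with HLY normoxia. For SUDHL2 hypoxia with HLY normoxia it was 0.976, against 0.754 for SUDHL2 hypoxia with SUDHL2 normoxia. These are correlations across genes, which are not independent replicates. Of 7 B cell markers, 5 were tested, and on all 3 arrays of a group 5 of them were above background in HLY normoxia, 4 in SUDHL2 hypoxia and 0 in both HLY hypoxia and SUDHL2 normoxia. On single arrays some signal was left. CD79A was above background on 2 SUDHL2 normoxia arrays and 1 HLY hypoxia array, and MS4A1 on 1 SUDHL2 normoxia array. Both read highest of that group on replicate 2 (7.75 and 6.5). EPCAM, an epithelial surface protein, was above background in HLY normoxia and SUDHL2 hypoxia and in no array of the other two groups. Values are therefore given as labelled, as the average hypoxia response (mean of the hypoxia groups minus mean of the normoxia groups), which stays the same if line labels are exchanged within an oxygen level, and as differences within the pairs of like arrays, HLY hypoxia against SUDHL2 normoxia and SUDHL2 hypoxia against HLY normoxia. Each of these differences sets arrays of different line labels against each other, and whether a pair shares a line was not tested. Because the comparisons use the same arrays, they are not independent of each other. In RNA of whole cultures, fewer cells of a kind and less RNA per cell cannot be told apart.

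A probe was kept where its detection p-value was under 0.01 on at least 3 arrays, which held for 34 histone probes of 27 genes. Of the other 69 probes, 59 were detected on 0 arrays, 6 on 1 and 4 on 2. Of the replication-dependent genes 18 of 70 were tested, namely 1 of 6 H1, 5 of 17 H2A, 5 of 18 H2B, 2 of 14 H3 and 5 of 15 H4 genes. Of the variants 9 of 17 were tested, namely 1 of 3 H1, 5 of 10 H2A, 0 of 1 H2B and 3 of 3 H3 genes. On all 12 arrays 15 of the 27 were above background. Above background on all 3 arrays of a group were 23 of the 27 in HLY hypoxia, 20 in HLY normoxia, 20 in SUDHL2 hypoxia and 18 in SUDHL2 normoxia. A gene that was kept through the group or groups where it is high had to differ, and this touches H2BC9, H4C8 and H2BC11 most. For H2AC6, H2AC25, H2BC9, H2BC11 and H4C8 at least 1 group had no array above background, so their fitted differences from those groups, plotted ones included, are not exact sizes. Levels below are normalized log2 intensities of the brightest probe of each gene, and levels of different genes are not set against each other, since probes differ in their response.

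Promoter windows of 250 bases before to 50 after the annotated start were found for 81 of the 87 genes in RefSeq (GRCh38.p14), 25 of them tested genes. The windows of 4 genes that rose in the average response are shown here, since H2AC18, H2AC20 and H2AC6 are, with H2AC19, the 4 H2A genes that rose and H3-3B was the variant that rose. Capitals mark the TATA box, letters TATAAA. They also mark the CCAAT box, named for its letters. The third set marked is the octamer ATTTGCAT, known from H2B promoters, and each was searched on both strands. H2AC18 lies at chr1:149842701-149843000 on the minus strand, H2AC20 at chr1:149886668-149886967 on the plus strand, H2AC6 at chr6:26123922-26124221 on the plus strand and H3-3B at chr17:75779730-75780029 on the minus strand.
H2AC18: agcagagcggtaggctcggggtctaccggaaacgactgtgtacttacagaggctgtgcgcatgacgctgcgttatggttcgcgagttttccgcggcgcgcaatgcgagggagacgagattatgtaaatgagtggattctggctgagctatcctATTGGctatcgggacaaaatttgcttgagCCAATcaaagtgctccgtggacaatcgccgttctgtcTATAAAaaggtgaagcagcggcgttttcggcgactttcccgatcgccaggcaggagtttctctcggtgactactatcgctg
H2AC20: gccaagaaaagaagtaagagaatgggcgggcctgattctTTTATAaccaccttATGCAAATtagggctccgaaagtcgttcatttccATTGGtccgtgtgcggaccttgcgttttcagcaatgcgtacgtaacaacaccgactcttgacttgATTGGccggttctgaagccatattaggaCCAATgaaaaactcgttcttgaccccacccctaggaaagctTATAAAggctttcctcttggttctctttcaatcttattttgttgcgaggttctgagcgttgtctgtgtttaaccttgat
H2AC6: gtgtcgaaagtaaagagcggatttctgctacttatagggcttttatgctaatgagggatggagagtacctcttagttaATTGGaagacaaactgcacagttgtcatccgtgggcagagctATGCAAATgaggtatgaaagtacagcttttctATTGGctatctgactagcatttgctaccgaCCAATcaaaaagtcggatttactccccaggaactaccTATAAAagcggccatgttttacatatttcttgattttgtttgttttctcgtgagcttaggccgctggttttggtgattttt
H3-3B: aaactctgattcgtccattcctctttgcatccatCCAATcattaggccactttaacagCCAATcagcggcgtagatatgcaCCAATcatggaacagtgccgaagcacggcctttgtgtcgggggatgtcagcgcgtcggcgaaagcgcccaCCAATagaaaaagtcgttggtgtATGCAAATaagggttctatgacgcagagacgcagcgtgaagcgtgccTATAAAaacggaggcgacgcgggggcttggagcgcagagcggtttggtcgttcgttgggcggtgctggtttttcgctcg
In each of these windows a TATA box lay just before the start, beginning 31, 29, 31 and 29 bases before it. The window of H2AC19 shares a run of 299 of its 300 bases with that of H2AC18, and these near-identical copies may share signal on the array. The window of H2AC20 also holds the start of H2BC21, which is read in the other direction from 236 bases away, and its octamer and the TATA box on the other strand (TTTATA) stand at the H2BC21 side.

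Across the family, TATAAA was in 66.2% of the windows of replication-dependent genes, in 31.2% of those of variant genes and in 11.5% of all 35116 windows. CCAAT was in 84.6%, 81.2% and 34.6%, and ATTTGCAT in 40.0%, 6.25% and 1.77%. The core letters of the hypoxia response element, ACGTG or GCGTG, were in 27.7% of the replication-dependent windows, 75.0% of the variant windows and 48.4% of all. Of the 8 genes that rose in the average response, H4C12 holds ACGTG and H3-3B holds GCGTG, and the windows of H1-2, H2AC18, H2AC19, H2AC20, H2AC6 and H2BC5 hold neither. None of these sets of letters lies within another, and a match is a description of the letters only.

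On average over both labels, 8 of 27 histone genes rose with hypoxia and 0 fell, where 3.9% of the 9621 genes tested rose and 5.64% fell (limma, Benjamini-Hochberg over all genes, adjusted p under 0.05). Of the replication-dependent genes 7 of 18 rose, namely H2AC18, H2AC19, H2AC20, H2AC6, H2BC5, H4C12 and the linker histone gene H1-2, and of the variants 1 of 9, H3-3B. Their differences ran from 0.38 to 0.72 on the log2 scale, or 1.30-fold to 1.64-fold. The median difference was 0.35 for replication-dependent genes and 0.16 for variants, beside 0.02 for all genes. Of the 27 differences 24 were above 0, beside 5105 of all 9621 genes tested. The 27 are not independent, since H2AC18 and H2AC19 may share signal. The exceptions among the 27 were H4C14 at -0.04, H2AZ1 at -0.02 and H3-3A at -0.01. When quantile normalization was replaced by median centring of each array, all 8 differences stayed above 0 (0.49 to 0.78) but 0 of the 8 passed (adjusted p 0.0505 to 0.327), and over all genes 32 rose and 33 fell.

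**Figure D1:**
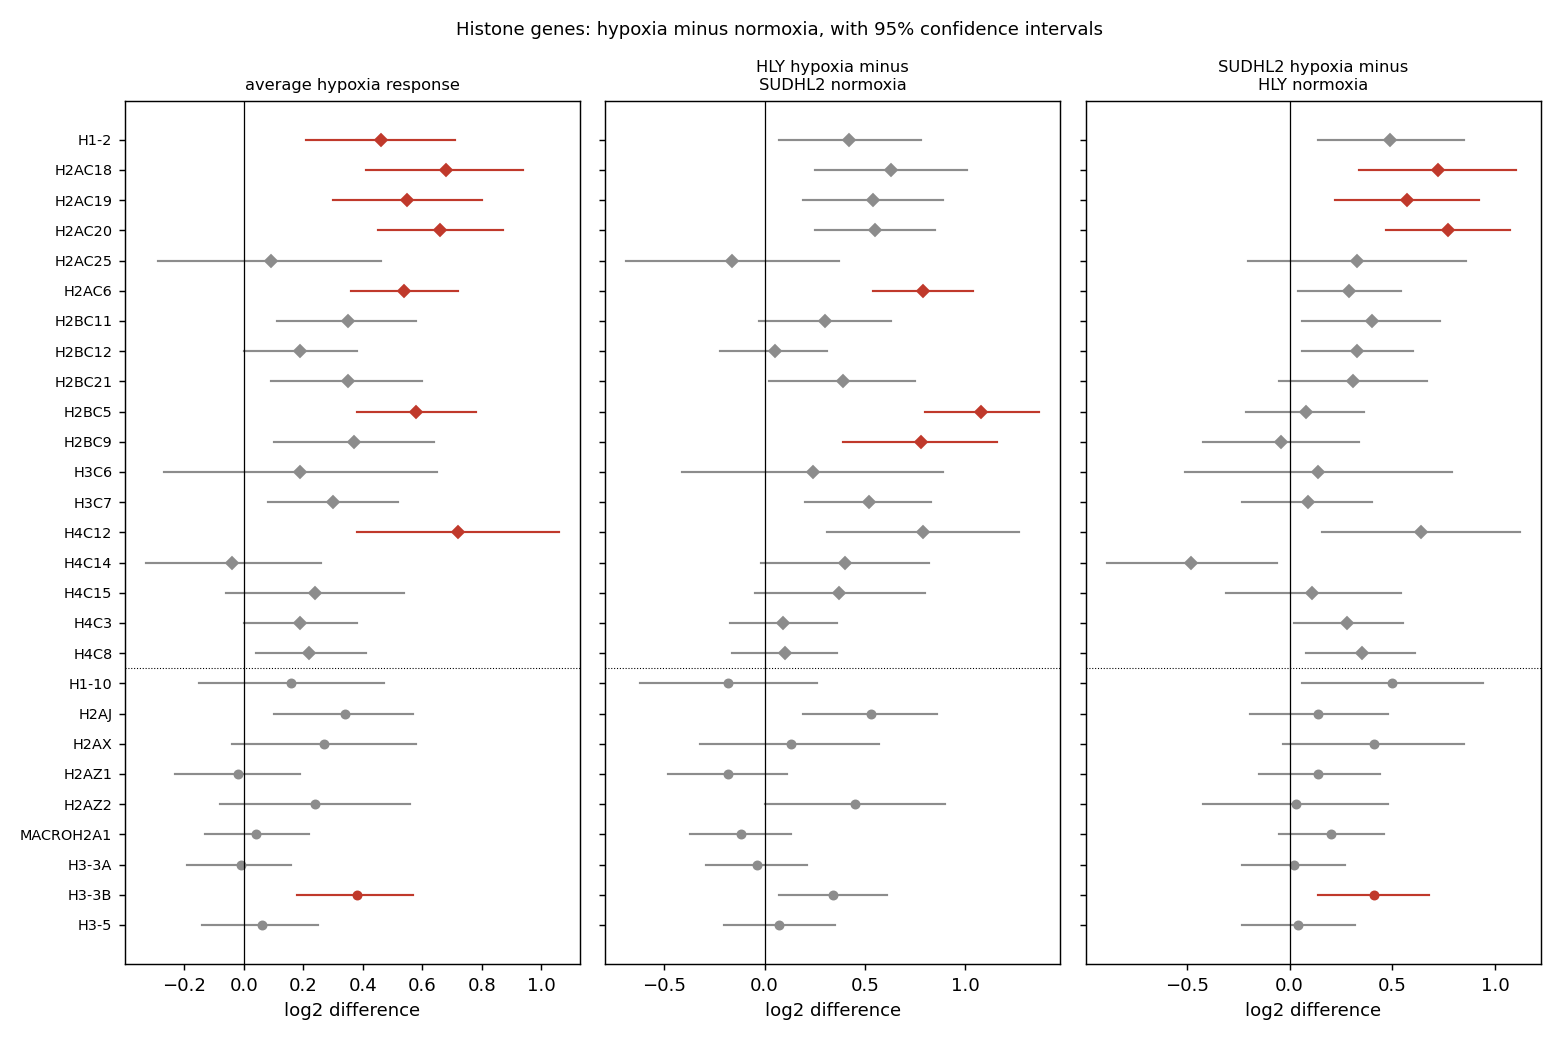
Log2 difference between hypoxia and normoxia with its 95% confidence interval (x axis) for the 27 tested histone genes (y axis, diamonds replication-dependent, circles variant), as the average response and within each pair of like arrays. Red marks an adjusted p under 0.05, and 24 of 27 average differences lie above 0, beside 5105 of all 9621 genes tested.

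Within the pairs of like arrays, fewer genes passed. Between HLY hypoxia and SUDHL2 normoxia 3 of 27 genes rose and 0 fell, beside 1.17% and 1.23% of all genes. These were H2BC5, H2AC6 and H2BC9, all replication-dependent genes of chromosome 6. H2BC9 was above background at HLY hypoxia alone and entered the test through that group, so its place in this count is no separate evidence. H2AC6 was above background on 0 of 3 SUDHL2 normoxia arrays. Between SUDHL2 hypoxia and HLY normoxia 4 of 27 rose and 0 fell, beside 5.75% and 10.1% of all genes. These were H2AC18, H2AC19 and H2AC20 of chromosome 1 and H3-3B. At this threshold the 2 sets have no gene in common, and the difference between the 2 pairs was not tested. In the HLY hypoxia pair H2AC18, H2AC19 and H2AC20 differed by 0.63, 0.54 and 0.55 (adjusted p = 0.089, 0.119 and 0.0593). In the SUDHL2 hypoxia pair H2BC5 and H2AC6 differed by 0.08 and 0.29, and H2BC9 was above background in neither group. Median differences of chromosome 1 and chromosome 6 replication-dependent genes were 0.4 and 0.42 in the HLY hypoxia pair. In the SUDHL2 hypoxia pair they were 0.33 and 0.29. Under median centring H2BC5 alone of the 27 passed in the HLY hypoxia pair, where 0.301% of all genes rose, and none of them in the SUDHL2 hypoxia pair, where 0.0104% rose and 0.0935% fell.

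H2AC18, H2AC19 and H2AC20 are H2A genes of the chromosome 1 cluster. H2AC18 had levels of 8.39, 8.31 and 8.5 on the HLY hypoxia arrays, 7.47, 7.82 and 7.97 at HLY normoxia, 8.41, 8.28 and 8.74 at SUDHL2 hypoxia and 7.90, 7.44 and 7.96 at SUDHL2 normoxia. All 6 hypoxia arrays lay above all 6 normoxia arrays. The average difference was 0.68 (standard error 0.125, 1.60-fold, adjusted p = 0.00483), with 0.64 under the HLY label (adjusted p = 0.00528) and 0.71 under the SUDHL2 label (adjusted p = 0.00279), which no longer passed under median centring (0.55, adjusted p = 0.077). The other kept probe of H2AC18 gave 0.35 on average (adjusted p = 0.0457), with 0.72 under the SUDHL2 label but -0.02 under HLY (adjusted p = 0.897), so the 2 probes disagree on the HLY arrays. In the SUDHL2 hypoxia pair the H2AC18 difference of 0.72 (adjusted p = 0.0149) no longer passed without HLY normoxia replicate 1 (0.58, adjusted p = 0.0693) or SUDHL2 hypoxia replicate 3 (0.59, adjusted p = 0.0645).

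H2AC19, the near-identical copy, had levels of 8.70, 8.45 and 8.45 at HLY hypoxia, 8.01, 8.12 and 7.92 at HLY normoxia, 8.39, 8.74 and 8.63 at SUDHL2 hypoxia and 7.88, 7.74 and 8.36 at SUDHL2 normoxia. All 6 hypoxia arrays again lay above all 6 normoxia arrays, with SUDHL2 normoxia replicate 3 close to the lowest hypoxia array. The average difference was 0.55 (standard error 0.116, adjusted p = 0.00999). The call of 0.57 in the SUDHL2 hypoxia pair (adjusted p = 0.0322) was lost without any of the 3 HLY normoxia arrays and without SUDHL2 hypoxia replicate 2 or 3 (adjusted p 0.0606 to 0.114). The call under the HLY label (0.52, adjusted p = 0.013) was lost without HLY hypoxia replicate 1 (0.43, adjusted p = 0.0566), and that under the SUDHL2 label under median centring (0.45, adjusted p = 0.126).

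H2AC20 had levels of 8.63, 8.63 and 8.72 at HLY hypoxia, 7.23, 7.23 and 6.81 at HLY normoxia, 7.83, 7.87 and 7.88 at SUDHL2 hypoxia and 8.21, 7.90 and 8.23 at SUDHL2 normoxia. Each hypoxia group lay above its like normoxia group with no overlap, and the HLY hypoxia arrays were the highest of all. The difference was 0.55 in the HLY hypoxia pair (adjusted p = 0.0593), 0.77 in the SUDHL2 hypoxia pair (1.71-fold, adjusted p = 0.00288) and 0.66 on average (standard error 0.0993, adjusted p = 0.00112). By label it was 1.57 for HLY (2.97-fold, adjusted p = 2.02e-07) and -0.25 for SUDHL2 (adjusted p = 0.13). H2BC21, the H2B gene that starts 236 bases away in the opposite direction, differed by 0.66 under the HLY label (adjusted p = 0.00357), by 0.04 under SUDHL2 (adjusted p = 0.852) and by 0.35 on average (adjusted p = 0.0844). Of 13 such divergent histone pairs with starts within 1000 bases, H2BC21 with H2AC20 and H3C7 with H2BC9, whose starts lie 979 bases apart, had both genes tested.

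**Figure D2:**
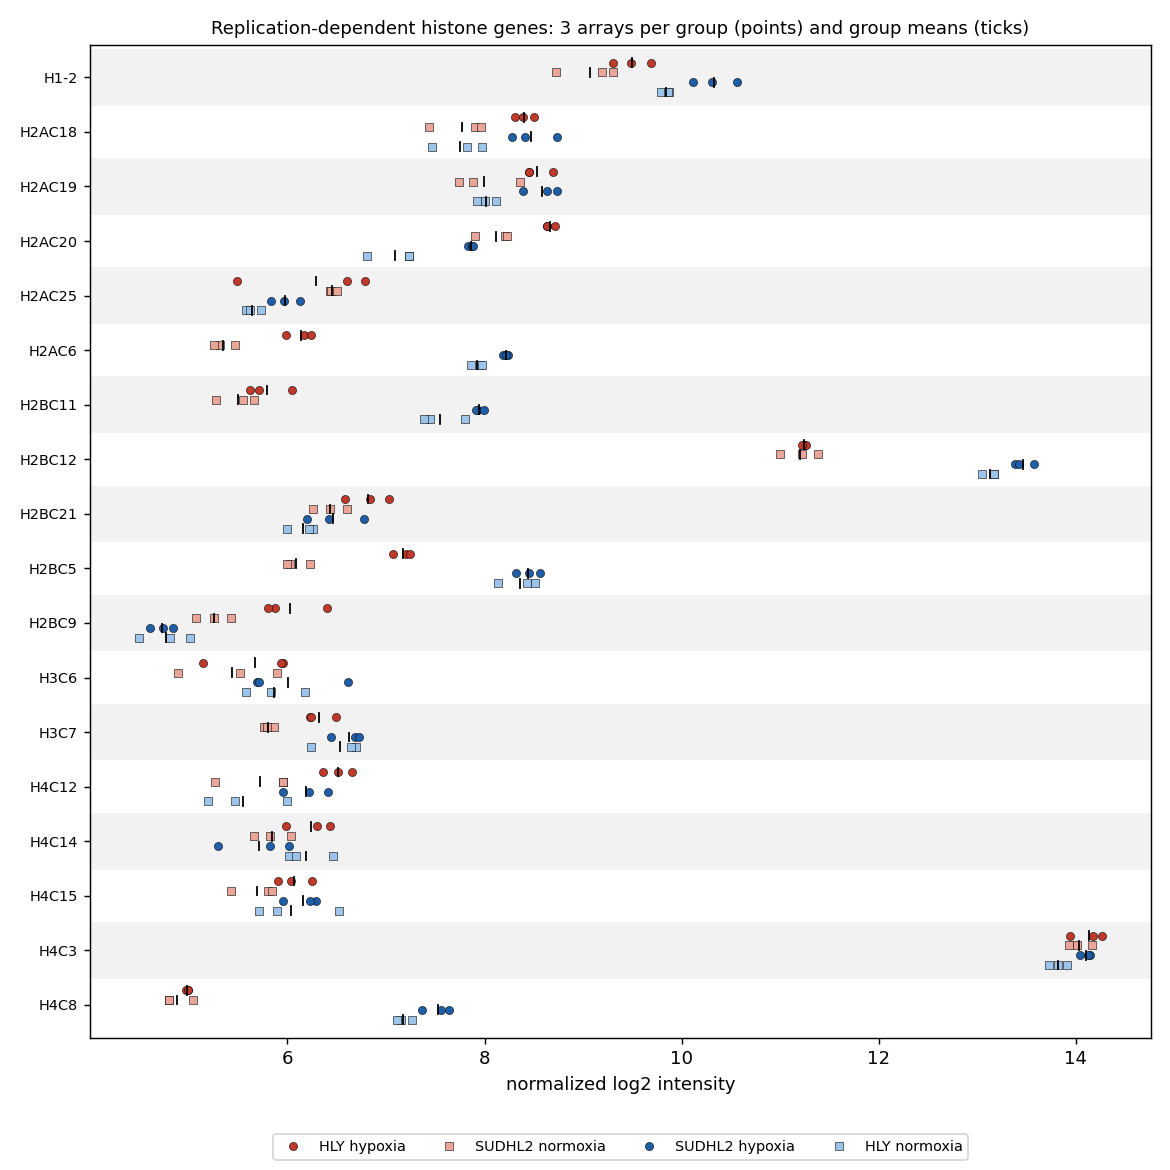
Normalized log2 intensity (x axis) of the 18 tested replication-dependent histone genes (y axis) on each of 12 arrays, with circles for hypoxia, squares for normoxia, red shades for HLY hypoxia and SUDHL2 normoxia and blue shades for SUDHL2 hypoxia and HLY normoxia; black ticks are group means. H4C8, H2AC6, H2BC11 and H2BC12 separate the red from the blue arrays, and for H2AC18 all hypoxia arrays lie above all normoxia arrays.

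Under the HLY label 11 of 27 histone genes rose and 5 fell, beside 33.1% and 32.4% of all genes, and under the SUDHL2 label 10 rose and 3 fell, beside 33.3% and 33.0%. The SUDHL2 response was above the HLY response for 8 genes and below it for 8, beside 37.1% and 36.6% of all genes. By label, the counts of higher histone genes lie near these shares of all genes and those of lower histone genes lie under them, which was not tested. The 5 genes that fell under the HLY label, H2AC6, H2BC5, H2BC11, H2BC12 and H4C8, all rose under the SUDHL2 label. Because the arrays group across the labels, a gene that differs between the 2 kinds of arrays changes in opposite directions under the 2 labels. The share of all genes that do so is not given here. All 5 lie on chromosome 6, as do 11 of the 18 tested replication-dependent genes. Of the 7 tested chromosome 1 genes 5 rose and 0 fell under HLY and 2 rose and 0 fell under SUDHL2, where both, H2AC18 and H2AC19, lost the call under median centring, while of the 11 on chromosome 6 these numbers were 3 and 5, and 7 and 1.

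H2BC12, an H2B gene of the chromosome 6 cluster, had levels of 11.25, 11.26 and 11.22 at HLY hypoxia, 13.17, 13.17 and 13.05 at HLY normoxia, 13.58, 13.38 and 13.42 at SUDHL2 hypoxia and 11, 11.38 and 11.22 at SUDHL2 normoxia. HLY normoxia and SUDHL2 hypoxia stood well above the other groups. The difference was -1.89 under HLY (adjusted p = 7.44e-09) and 2.26 under SUDHL2 (4.79-fold, adjusted p = 9.96e-10), but 0.05 and 0.33 within the pairs of like arrays and 0.19 on average (adjusted p = 0.204). The other kept probe of H2BC12 gave -2.78, 3.01 and, on average, 0.11.

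H2BC11, also an H2B gene, had levels of 5.62, 6.05 and 5.71 at HLY hypoxia, 7.45, 7.80 and 7.39 at HLY normoxia, 7.93, 7.99 and 7.91 at SUDHL2 hypoxia and 5.27, 5.66 and 5.55 at SUDHL2 normoxia. The same pairing of groups was seen, with 0 of 3 SUDHL2 normoxia arrays and 1 of 3 HLY hypoxia arrays above background. Under SUDHL2 it was at least 4.34-fold higher at hypoxia (adjusted p = 4.56e-09), a bound set by the dimmest signal still above background on each array of the dim group, or by the probe's own signal where that was higher. Under HLY the difference was -1.75 (adjusted p = 1.83e-07), and on average it was 0.35 (adjusted p = 0.0616).

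H4C8, an H4 gene of the same cluster, had levels of 4.99, 4.97 and 4.99 at HLY hypoxia, 7.15, 7.26 and 7.11 at HLY normoxia, 7.64, 7.56 and 7.37 at SUDHL2 hypoxia and 4.8, 5.04 and 4.8 at SUDHL2 normoxia. It was not above background on any HLY hypoxia or SUDHL2 normoxia array. It was at least 2.72-fold higher at normoxia under HLY (adjusted p = 1e-09) and at least 3.24-fold higher at hypoxia under SUDHL2 (adjusted p = 1.32e-10). The difference between SUDHL2 hypoxia and HLY normoxia, both above background, was 0.35 (adjusted p = 0.0696).

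H2AC6, the H2A gene whose promoter is printed above, is also known to give a polyadenylated mRNA. It had levels of 5.99, 6.17 and 6.24 at HLY hypoxia, 7.95, 7.86 and 7.97 at HLY normoxia, 8.19, 8.24 and 8.22 at SUDHL2 hypoxia and 5.47, 5.32 and 5.25 at SUDHL2 normoxia, where 0 of 3 arrays were above background. Each hypoxia group lay above its like normoxia group without overlap. The difference was 0.79 in the HLY hypoxia pair (adjusted p = 0.00264), or at least 1.24-fold as a bound, 0.29 in the SUDHL2 hypoxia pair (adjusted p = 0.11) and 0.54 on average (standard error 0.0825, adjusted p = 0.00126), which includes the SUDHL2 normoxia arrays. With the deposited z-scores the average call was lost (0.16 on that scale, adjusted p = 0.0672), and so was the call in the HLY hypoxia pair, which was also lost without background correction (adjusted p = 0.168 and 0.107). By label H2AC6 was -1.79 under HLY and at least 5.24-fold higher at hypoxia under SUDHL2.

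H2BC5, an H2B gene, had levels of 7.20, 7.07 and 7.24 at HLY hypoxia, 8.51, 8.43 and 8.14 at HLY normoxia, 8.45, 8.32 and 8.56 at SUDHL2 hypoxia and 6.23, 6.03 and 6.0 at SUDHL2 normoxia. HLY hypoxia lay above SUDHL2 normoxia without overlap, and SUDHL2 hypoxia overlapped HLY normoxia. The difference was 1.08 in the former pair (2.12-fold, adjusted p = 0.000753), 0.08 in the latter (adjusted p = 0.728) and 0.58 on average (adjusted p = 0.00186). The other kept probe of H2BC5 showed no rise, with 0.09 in the former pair (adjusted p = 0.837) and 0.10 on average (adjusted p = 0.624). It was above background on 2 of 3 HLY hypoxia arrays and 0 of 3 SUDHL2 normoxia arrays, so these are not exact sizes. The rise was thus seen with the brighter probe alone, and whether the 2 probes differ was not tested. By label both probes changed in the same directions, with -1.19 and -3.15 under HLY, and under SUDHL2 with 2.36 for the brighter and at least 8.6-fold higher at hypoxia for the other.

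**Figure D3:**
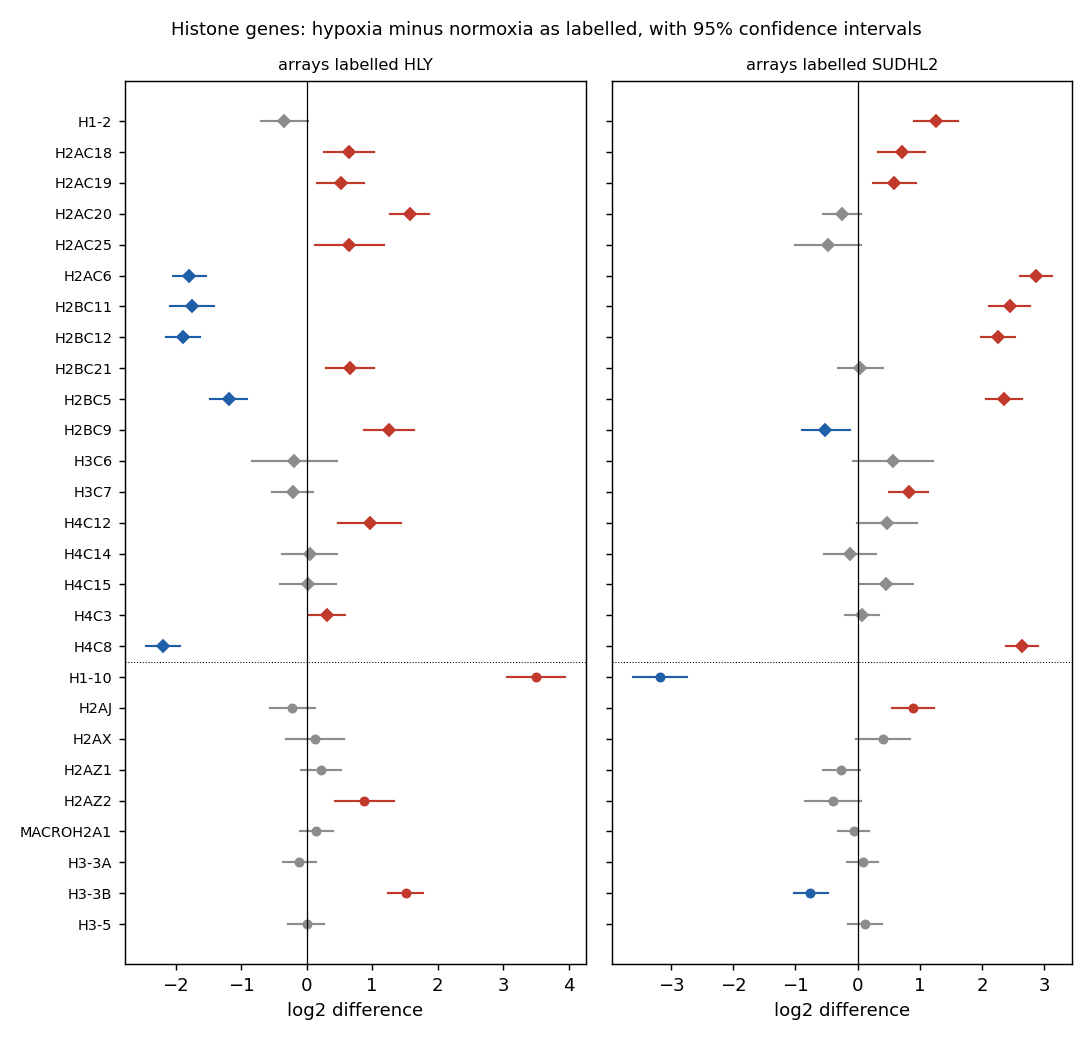
Log2 difference between hypoxia and normoxia with its 95% confidence interval (x axis) for the 27 tested histone genes (y axis, diamonds replication-dependent, circles variant) under each line label. Red marks higher and blue lower at an adjusted p under 0.05, and H4C8, H2BC12, H2AC6, H2BC11, H2BC5, H2BC9, H1-10 and H3-3B are called in opposite directions under the 2 labels.

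H1-2, a linker histone gene of chromosome 6, had levels of 9.30, 9.49 and 9.69 at HLY hypoxia, 9.79, 9.87 and 9.86 at HLY normoxia, 10.56, 10.31 and 10.12 at SUDHL2 hypoxia and 9.19, 8.73 and 9.30 at SUDHL2 normoxia. The lowest HLY hypoxia array and the highest SUDHL2 normoxia array both read 9.30 after rounding, and SUDHL2 hypoxia lay above HLY normoxia. The average difference was 0.46 (standard error 0.118, adjusted p = 0.0266). This call was lost without HLY hypoxia replicate 3 (0.41, adjusted p = 0.0737), any of the 3 HLY normoxia arrays (0.45 to 0.47, adjusted p 0.0543 to 0.0614) or SUDHL2 normoxia replicate 2 (0.37, adjusted p = 0.0522). By label H1-2 rose by 1.26 under SUDHL2 (2.39-fold, adjusted p = 1.22e-05), and under HLY the difference was -0.34 (adjusted p = 0.0877).

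H2BC9 had levels of 5.87, 5.80 and 6.40 at HLY hypoxia, 5.01, 4.49 and 4.81 at HLY normoxia, 4.84, 4.74 and 4.61 at SUDHL2 hypoxia and 5.43, 5.07 and 5.25 at SUDHL2 normoxia. It was above background on the 3 HLY hypoxia arrays and on no other array, so its place among the tested genes rests on that group. It was at least 1.14-fold higher at HLY hypoxia than at SUDHL2 normoxia (adjusted p = 0.0348), a call lost without HLY normoxia replicate 3 or any of the SUDHL2 normoxia arrays (adjusted p 0.0531 to 0.128) and without a detection filter, without background correction or with the deposited z-scores (adjusted p = 0.0676, 0.189 and 0.243). It was at least 1.09-fold higher than at HLY normoxia (adjusted p = 2.56e-05). It is also counted among the 3 lower genes of the SUDHL2 label, where no array of either group was above background and no fold is given. That call did not hold when replicate 3 of SUDHL2 hypoxia or replicate 1 of SUDHL2 normoxia was left out (adjusted p = 0.0615 and 0.0778). Nor did it hold without background correction, under median centring or with the deposited z-scores (adjusted p 0.0823 to 0.124).

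H4C12, an H4 gene, rose by 0.72 on average (standard error 0.158, 1.64-fold, adjusted p = 0.013), with 0.79 in the HLY hypoxia pair (adjusted p = 0.09) and 0.64 in the SUDHL2 hypoxia pair (adjusted p = 0.0674). Its levels were 6.66, 6.51 and 6.36 at HLY hypoxia, 6.0, 5.47 and 5.19 at HLY normoxia, 6.22, 5.95 and 6.41 at SUDHL2 hypoxia and 5.95, 5.26 and 5.95 at SUDHL2 normoxia. SUDHL2 hypoxia and HLY normoxia overlapped, and on the normoxia arrays it was above background on 1 of 3 for HLY and 2 of 3 for SUDHL2.

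H3C7, an H3 gene of chromosome 6, had levels of 6.49, 6.23 and 6.24 at HLY hypoxia, 6.70, 6.65 and 6.24 at HLY normoxia, 6.44, 6.69 and 6.73 at SUDHL2 hypoxia and 5.86, 5.76 and 5.79 at SUDHL2 normoxia. The SUDHL2 normoxia arrays were the lowest and the other groups overlapped. It rose by 0.82 under SUDHL2 (adjusted p = 0.000199), with -0.21 under HLY (adjusted p = 0.212) and 0.30 on average (adjusted p = 0.083).

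H4C3, an H4 gene of chromosome 6, had levels of 13.94, 14.18 and 14.27 at HLY hypoxia, 13.73, 13.91 and 13.82 at HLY normoxia, 14.15, 14.12 and 14.04 at SUDHL2 hypoxia and 14.17, 13.93 and 14.01 at SUDHL2 normoxia. All groups lay close together. Under HLY the difference was 0.31 (adjusted p = 0.0417), which turned to -0.13 with the deposited z-scores (adjusted p = 0.564), did not pass under median centring (adjusted p = 0.265) and no longer passed without HLY hypoxia replicate 2 or 3, HLY normoxia replicate 1 or 3, or SUDHL2 hypoxia replicate 2 (adjusted p 0.0539 to 0.147). On average it was 0.19 (adjusted p = 0.199).

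Of the other replication-dependent genes, H2AC25, not above background on any HLY normoxia array, passed under HLY with 0.65 (at least 1.32-fold, adjusted p = 0.032), though HLY hypoxia replicate 1 at 5.49 lay below all HLY normoxia arrays while replicates 2 and 3 read 6.60 and 6.79. That call was lost without HLY hypoxia replicate 2 or 3 or any of the HLY normoxia arrays (adjusted p 0.0524 to 0.167). H3C6 and the H4 genes H4C14 and H4C15 passed in none of the 6 comparisons, with average differences of 0.19, -0.04 and 0.24. H2BC21 had a lower response under SUDHL2 than under HLY (-0.62, adjusted p = 0.0312), a call lost without HLY hypoxia replicate 1 or 2, HLY normoxia replicate 1, SUDHL2 hypoxia replicate 1 or 2 or SUDHL2 normoxia replicate 1 (adjusted p 0.0507 to 0.0849).

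Among the variants, H1-10, a linker histone made outside S phase, had the largest differences by label. Its levels were 9.45, 9.10 and 9.41 at HLY hypoxia, 5.41, 6.07 and 5.98 at HLY normoxia, 6.37, 5.91 and 6.68 at SUDHL2 hypoxia and 9.52, 9.60 and 9.38 at SUDHL2 normoxia. The HLY hypoxia and SUDHL2 normoxia arrays were high and the others low, with 2 of 3 arrays above background in each low group. H1-10 rose by 3.50 under HLY (11.3-fold, adjusted p = 1.89e-09) and fell by 3.18 under SUDHL2 (adjusted p = 5.6e-09), while the average difference was 0.16 (adjusted p = 0.528). Within the pairs of like arrays the differences were -0.18 (adjusted p = 0.742) and 0.50 (adjusted p = 0.115).

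H3-3B and H3-3A both code for the replacement histone H3.3, which is laid down outside replication. H3-3B had levels of 9.73, 9.79 and 9.71 at HLY hypoxia, 8.29, 8.15 and 8.26 at HLY normoxia, 8.71, 8.71 and 8.51 at SUDHL2 hypoxia and 9.38, 9.60 and 9.22 at SUDHL2 normoxia. Each hypoxia group lay above its like normoxia group without overlap. The average difference was 0.38 (standard error 0.0894, 1.30-fold, adjusted p = 0.0189), with 0.34 in the HLY hypoxia pair (adjusted p = 0.205) and 0.41 in the SUDHL2 hypoxia pair (adjusted p = 0.0428). The average call was lost with the deposited z-scores (0.22, adjusted p = 0.0646) and without HLY normoxia replicate 2 (0.36, adjusted p = 0.0508). The call in the SUDHL2 hypoxia pair was lost without any of the HLY normoxia arrays, HLY hypoxia replicate 1 or 3, SUDHL2 hypoxia replicate 1 or 2 or SUDHL2 normoxia replicate 1 (adjusted p 0.0527 to 0.138). By label H3-3B rose by 1.51 under HLY and fell by 0.76 under SUDHL2 (adjusted p = 1.01e-07 and 0.000111).

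H3-3A had levels of 13.70, 13.71 and 13.78 at HLY hypoxia, 13.78, 13.94 and 13.79 at HLY normoxia, 13.97, 13.85 and 13.73 at SUDHL2 hypoxia and 13.86, 13.68 and 13.78 at SUDHL2 normoxia. It passed in none of the 6 comparisons, with an average difference of -0.01 (95% confidence interval -0.19 to 0.16), and its 2 other kept probes gave 0.05 and 0.09. H3-5, an H3.3-like gene whose copies of related sequence may share its signal, also passed in none (average 0.06, interval -0.14 to 0.25).

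H2AZ1 codes for H2A.Z, a variant found at promoters. It had levels of 14.13, 13.62 and 13.83 at HLY hypoxia, 13.63, 13.69 and 13.61 at HLY normoxia, 13.89, 13.73 and 13.73 at SUDHL2 hypoxia and 13.94, 14.04 and 14.16 at SUDHL2 normoxia. SUDHL2 normoxia lay above SUDHL2 hypoxia, which lay above HLY normoxia, and HLY hypoxia overlapped all of them. Its average difference was -0.02 (interval -0.23 to 0.19), and it passed only in the difference between the responses (-0.48, adjusted p = 0.0374), a call lost without HLY hypoxia replicate 1 or 3, HLY normoxia replicate 1 or 3, SUDHL2 hypoxia replicate 2 or 3 or SUDHL2 normoxia replicate 2 or 3 (-0.34 to -0.51, adjusted p 0.0518 to 0.108).

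Of the other variants, H2AZ2, the second H2A.Z gene, rose by 0.88 under HLY (adjusted p = 0.0021), and H2AJ, an H2A gene outside the clusters, rose by 0.89 under SUDHL2 (adjusted p = 0.000167). H2AX, the variant phosphorylated at DNA breaks, and MACROH2A1, which carries a large extra domain, passed in none of the 6 comparisons with the brightest probe, with average differences of 0.27 (adjusted p = 0.273) and 0.04 (adjusted p = 0.795). A dimmer MACROH2A1 probe passed under HLY with 0.57 (adjusted p = 0.00387). In the difference between the responses both dimmer probes passed (-0.84, adjusted p = 0.00237, and -0.64, adjusted p = 0.029), beside -0.21 for the brightest (adjusted p = 0.26), and whether the 3 probes differ was not tested.

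**Figure D4:**
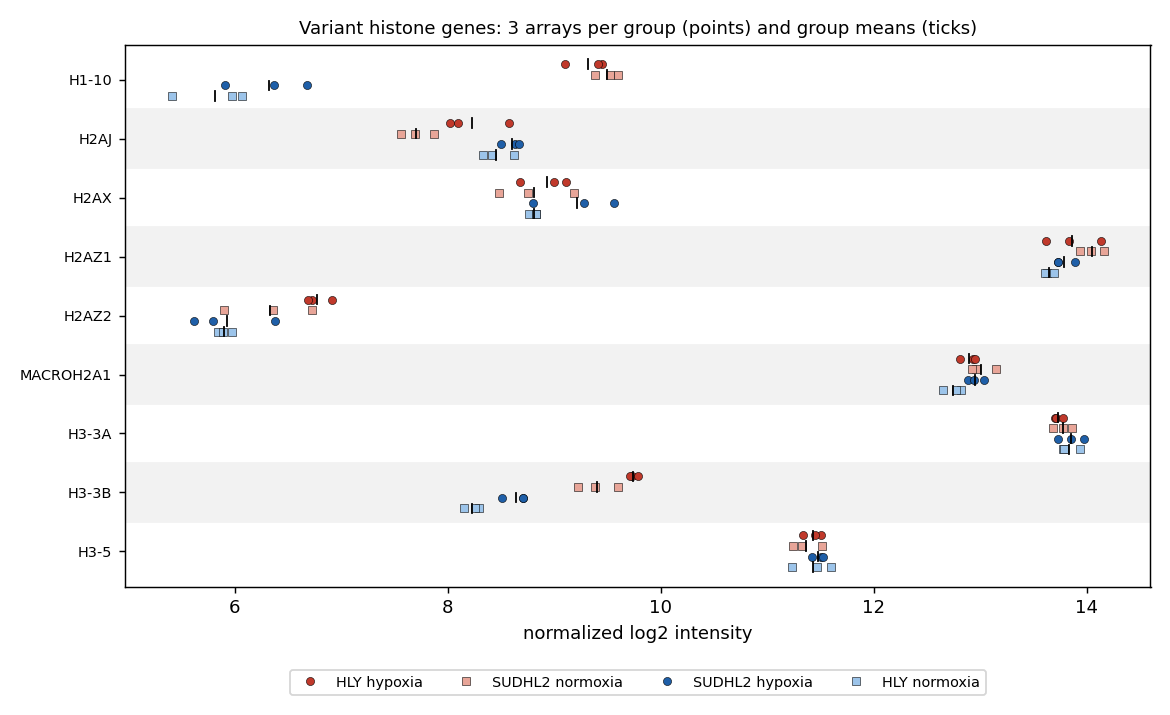
Normalized log2 intensity (x axis) of the 9 tested variant histone genes (y axis) on each of 12 arrays, drawn as circles for hypoxia and squares for normoxia with black ticks for group means. H1-10 and H3-3B are high on the HLY hypoxia and SUDHL2 normoxia arrays (red shades), while H2AZ1, H3-3A and MACROH2A1 differ little between groups.

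Of 14 genes of histone gene transcription and mRNA processing 11 were tested, with a median average difference of 0.04. On average 2 rose and 0 fell, beside 3.9% and 5.64% of all genes tested. SLBP, the stem-loop binding protein, rose by 0.41 (adjusted p = 0.0282) and HINFP, a transcription factor of H4 genes, rose by 0.33 (adjusted p = 0.0479). SLBP had levels of 10.79, 11.22 and 10.69 at HLY hypoxia, 11.38, 11.28 and 11.31 at HLY normoxia, 11.75, 11.61 and 11.41 at SUDHL2 hypoxia and 10.48, 10.22 and 10.33 at SUDHL2 normoxia, so that each hypoxia group lay above its like normoxia group. NPAT, the coactivator at histone clusters, fell by 0.84 in the SUDHL2 hypoxia pair (adjusted p = 0.00133) and passed neither in the HLY hypoxia pair (0.25) nor on average (-0.29, adjusted p = 0.066).

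Of 22 histone chaperones and deposition factors 20 were tested, with a median average difference of 0.10. On average 2 rose and 1 fell, beside 3.9% and 5.64% of all genes. CHAF1A, the large subunit of the chromatin assembly factor that places histones behind the replication fork, rose by 0.49 (adjusted p = 0.0118). CABIN1, a subunit of the HIRA complex, rose by 0.48 (adjusted p = 0.0134), and ASF1A, a chaperone of H3 and H4, fell by 0.42 (adjusted p = 0.0404). In the HLY and SUDHL2 hypoxia pairs CHAF1A differed by 0.46 and 0.53 (adjusted p = 0.154 and 0.0312). There CABIN1 differed by 0.71 and 0.25 (adjusted p = 0.0219 and 0.287) and ASF1A by 0.08 and -0.92 (adjusted p = 0.877 and 0.00286). Values of the listed genes under alternative processing are not given here. Of 17 genes of DNA replication and S phase 15 were tested, with a median average difference of 0.09. On average 1 rose and 0 fell, beside the same 3.9% and 5.64%. That gene was CDT1, a licensing factor of replication origins (0.47, adjusted p = 0.00885). In the SUDHL2 hypoxia pair CDC6, CDT1 and GINS2 rose by 0.91, 0.67 and 0.53 and TOP2A fell by 0.43. Of all genes 5.75% rose and 10.1% fell in that pair. In the HLY hypoxia pair 0 of 15 passed, beside 1.17% and 1.23% of all genes. Whether the counts of these lists differ from the shares of all genes was not tested. The part that a different share of S phase cells has in the histone values was not tested.

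**Figure D5:**
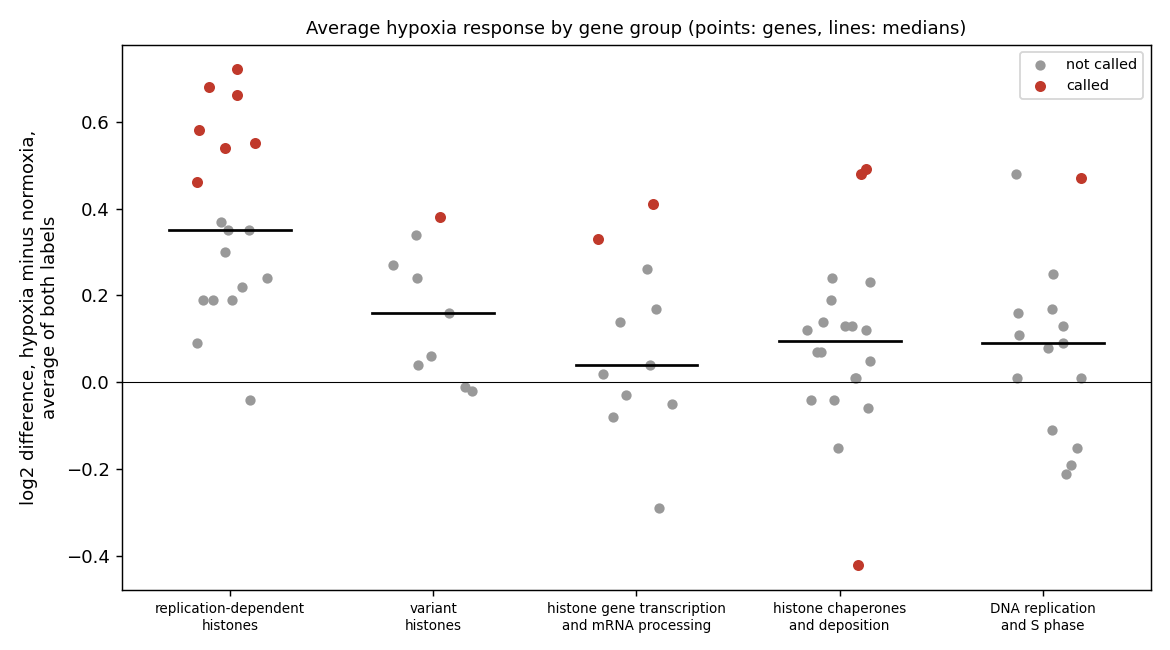
Average log2 difference between hypoxia and normoxia (y axis) of each tested gene (points, red where the adjusted p was under 0.05) in 5 gene groups, with the median of each group as a black line. The median of the replication-dependent histone genes, 0.35, lies above those of the other groups, which run from 0.04 to 0.16.

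Of the marker lists of other cells, 1 of 6 T cell markers was tested, CD2. It was above background on 2 of 3 arrays in each hypoxia group and on 0 normoxia arrays. CD2 thus entered the test through the hypoxia arrays alone. Its average call (0.64, adjusted p = 0.011) is therefore no separate evidence, and the value is not an exact size. Of 5 myeloid and 5 epithelial markers 1 each was tested. The part of these markers in the histone values was not tested. The arrays had median intensities between 111 and 149 and between 12322 and 14925 detected probes.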

How the data were processed

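RNA of 12 samples was hybridized to Illumina HumanHT-12 v4 arrays, and groups were taken from the sample labels. The authors deposited the raw intensity of each probe from GenomeStudio 2011.1, with no background subtraction or normalization. Each intensity came with a deposited detection p-value, which compares the probe with negative control probes. A deposited score, in which log10 intensities are centred and scaled array by array (z-scores), served here as an alternative only.

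Intensities were normalized with neqc of limma 3.58.1 in R 4.3.3 (normexp from the detection p-values, quantile normalization, offset of 16), which gives log2 values. A probe entered when at least 3 arrays had a detection p under 0.01, and the brightest stood for its gene, which gave 9621 genes. The 4 group means were fitted with lmFit and eBayes, with 8 residual degrees of freedom and a prior of 5.71, with Benjamini-Hochberg adjustment over all genes and a threshold of 0.05. The fit was checked on simulated data. Probes were named through the array's annotation and the RefSeq gene table, and 30113 of 47230 had 1 symbol. A probe of several histone genes and a pseudogene probe were left out.

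Named with all array values were, in each comparison, up to 4 called genes of largest change whose arrays did not overlap, and the gene of highest mean signal in each protein class and kind, a rule for choosing names only; H4C12 was added after its values were seen. Members, gene lists and comparisons were chosen with earlier results of these data known. Alternatives were no background correction, median centring, the deposited scores, other detection filters, the mean of a gene's probes or each probe alone, other moderation, each label alone, a replicate block, and leaving out each array. Python 3.11.15 with pandas 2.3.3 and matplotlib 3.10.9 made the tables and figures.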

Additional observations from a re-analysis of the deposited data

Results flagged for a closer look

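For 16 histone genes the response to hypoxia differed between the line labels by a test of the difference itself (SUDHL2 response minus HLY response, log2, limma, adjusted p from 3.18e-12 to 0.0374). With every group above background on at least 1 array, the SUDHL2 response was the higher for H2BC12 (4.15), H2BC5 (3.55), H1-2 (1.60), H2AJ (1.11) and H3C7 (1.03), and the lower for H1-10 (-6.68), H3-3B (-2.26), H2AC20 (-1.82), H2AZ2 (-1.28), H2BC21 (-0.62) and H2AZ1 (-0.48). The other 5 genes had at least 1 group with no array above background, so their fitted values are not exact sizes. These were 4.83 for H4C8, 4.66 for H2AC6, 4.20 for H2BC11, -1.77 for H2BC9 and -1.13 for H2AC25. H2BC9 was above background at HLY hypoxia alone and entered the test through that group. Of all genes tested 37.1% were higher and 36.6% lower in this comparison, and the arrays group across the line labels, so that a difference between lines and a difference in response cannot be told apart here. Under median centring the differences of H3C7, H2AJ and H2AZ1 did not pass (adjusted p = 0.134, 0.139 and 0.0764), and that of H2AZ1 was also lost with the deposited z-scores (adjusted p = 0.732).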

How the results depend on the processing

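Of 60 called gene results, 36 kept their direction and their call under every alternative run. None of the 8 average calls and none of the 4 calls in the SUDHL2 hypoxia pair were among the 36. All of these were lost under median centring. In the HLY hypoxia pair H2BC5 alone was among the 36, and the rest were calls by label or in the difference between the responses. Over 1249 gene results under single alternatives, 1152 kept both, 96 lost the call, and 1 reversed, H4C3 under the HLY label with the deposited z-scores (-0.13, adjusted p = 0.564). The cause was not tested.

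Leaving out genes not above background on all 12 arrays, which tests fewer genes, gave 6 higher and 2 lower histone genes of 15 under HLY, 6 and 1 under SUDHL2 and 4 and 4 for the difference between the responses, beside 30.5% and 34.1%, 35.0% and 30.2%, and 39.6% and 33.8% of all genes then tested. Counting only the 15 members above background on all arrays in the unchanged fit, an alternative chosen after seeing the data, gave these same counts. It also gave 1 higher gene in the HLY hypoxia pair, beside 1.17% of all genes in that fit. With no detection filter, which tests all 87 histone genes, 17 were higher under SUDHL2, 13 in the difference, and 1 was lower in the SUDHL2 hypoxia pair, beside 16.8%, 19.4% and 4.19% of 20046 genes. Median centring left 0 higher genes in the average response, 1 in the HLY hypoxia pair and 0 in the SUDHL2 hypoxia pair, where 0.333%, 0.301% and 0.0104% of all genes were higher. It moved the median difference of all genes by 0.29 under HLY, by -0.37 in the difference between the responses and by 0.22 in the HLY hypoxia pair. Beside 3185 higher and 3119 lower genes it called 3319 and 1585 under HLY, and in the difference 2262 and 3627 beside 3574 and 3526. The histone median minus that of all genes was then 0.02 under HLY, 0.37 under SUDHL2, 0.25 on average, 0.31 in the HLY hypoxia pair and 0.19 in the SUDHL2 hypoxia pair, beside 0.13, 0.39, 0.25, 0.38 and 0.23 with quantile normalization.

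Leaving out each array in turn gave 2 to 5 lower genes under SUDHL2 (5 without SUDHL2 normoxia replicate 2), 5 to 8 lower genes in the difference (5 without HLY hypoxia replicate 1), 7 to 9 higher genes in the average, and 2 to 6 higher and 0 to 1 lower genes in the SUDHL2 hypoxia pair. In that pair 2 histone genes were higher without any of the HLY normoxia arrays or without SUDHL2 hypoxia replicate 3. There 1 histone gene was lower, H4C14, without SUDHL2 hypoxia replicate 1. Deviations of same-numbered arrays from their group means correlated between groups from -0.357 to 0.275. Whether the numbers pair the samples cannot be told from these values. With a replicate block 2 histone genes were higher in the SUDHL2 hypoxia pair in place of 4, beside 4.56% of all genes. In the average 9 were higher in place of 8, beside 3.07% of all genes. The number of arrays, 3 in a group, limits the precision.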
